A study of Mus musculus with 8 samples.

Results

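Spp1, Cd44, Muc1, Prom1, Cd24a, Clu and Anxa2 encode proteins that are secreted by, or sit on the surface of, duct and progenitor cells of the pancreas. All array probes whose gene name is one of these 7 symbols were taken, and each of the 7, of 27745 gene names on the array, was found. They had 12 of the 41174 probes that are not controls. Expression was measured in pancreatic epithelium, dorsal and ventral parts together, of e15.5 mouse embryos, on 8 one-colour arrays. The Sox9 mutant group held 4 arrays of Sox9 fl/fl; Rosa26-CreER embryos, in which tamoxifen given to the dam activates a recombinase that deletes the floxed Sox9 alleles. The wild-type group held 4 arrays of littermates with Rosa26-CreER. Both groups came from a cross of a Sox9-flox line of mixed FVB/N, C57Bl/6J and CD1 background with Rosa26-CreER on C57Bl/6J, and dams of both received 6 mg of tamoxifen per 40 g in corn oil at e12.5. RNA of 4 pancreata was pooled for every array, so replicates differ as pools of embryos do. The Rosa26 locus is active in most cell types, so recombination was not limited to duct or progenitor cells, and in such a bulk sample fewer cells of a type and less RNA per cell cannot be told apart.

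Osteopontin, the product of Spp1, is a secreted phosphoprotein with an integrin-binding site, and it also binds CD44, a transmembrane receptor whose main ligand is hyaluronan. Mucin 1 and prominin 1 lie on the luminal side of epithelial cells, mucin 1 as a glycosylated transmembrane coat and prominin 1 in membrane protrusions. CD24 is a small glycoprotein anchored in the membrane by a lipid, clusterin is a secreted chaperone, and annexin A2 is a calcium-dependent protein that binds membrane lipids. In the pancreas, Spp1, Muc1 and Prom1 are used as markers of duct cells, and the transcription factor Sox9 marks progenitors and, later, ducts. The comparison asks which of these genes differ when Sox9 is removed while endocrine, acinar and duct cells are being formed.

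A level is the log2 processed signal of a probe relative to the 75th percentile of its array, a difference is Sox9 mutant minus wild type, and adjusted p-values come from limma with Benjamini-Hochberg adjustment over all 29462 probes that passed a brightness filter. Probes were called at an adjusted p under 0.05. One array stood apart from the rest. On that of Sox9 mutant replicate 2 the median processed signal was 756 scanner units and 86.1% of spots were well above background, against 219 to 272 units and 69.6% to 74.0% on the other 7. Set against the other mutant arrays its median correlation was 0.91, whereas each of the other 7 reached 0.99 within its genotype. The difference of each tested member probe is therefore also given without that array. All mutant pools were on one slide and in one scan, and all wild-type pools on another slide and in another scan, so genotype cannot be told apart from slide or scan. The targeted gene followed its label. The main Sox9 probe had a level of 0.50 ± 0.08 in mutants and 1.83 ± 0.07 in wild type (SD, n = 4 pools each; adjusted p 0.00116, limma), with a difference of -1.33, and of -1.30 without mutant replicate 2. A second Sox9 probe had a difference of -2.51 (adjusted p 0.00133, limma), and the third, much dimmer, one of 0.63 (adjusted p 0.342, limma).

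Spp1 was the member that fell in Sox9 mutant epithelium, to less than 50% of its wild-type level, while Cd44, the receptor of its product, Prom1, Clu and Anxa2 did not pass the test in either direction. Muc1 and Cd24a lay lower in mutants by smaller amounts that did not pass with all 8 arrays. Of the 12 member probes, 11 passed the filter. The dim Cd44 probe A_51_P407053 did not, being well above background on 2 mutant arrays and 1 wild-type array. Of the 11, 0 were called higher and 1, that of Spp1, was called lower, beside 3.84% of all probes called in either direction, 1.61% higher and 2.23% lower. The median difference of the 11 was -0.10, beside 0.05 for all probes tested. Without mutant replicate 2, 0 were called higher and 2 lower (Spp1 and Cd24a), beside 16% of all probes in either direction, 7.16% higher and 8.82% lower, and the medians were 0.05 and -0.01. In 3 of the 11 (Spp1, Cd24a and 1 Muc1 probe) the genotypes did not overlap, with mutants lower each time, beside 25.6% of all probes in either direction, 13% higher and 12.6% lower. Without mutant replicate 2 a Prom1 probe was added, higher in mutants, beside 34.5% in either direction, 16.3% higher and 18.2% lower. Taken over both directions, the share of separated members therefore lies close to that of the array as a whole. With all 8 arrays all 3 were on the lower side, beside 12.6% of all probes.

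**Figure D1:**
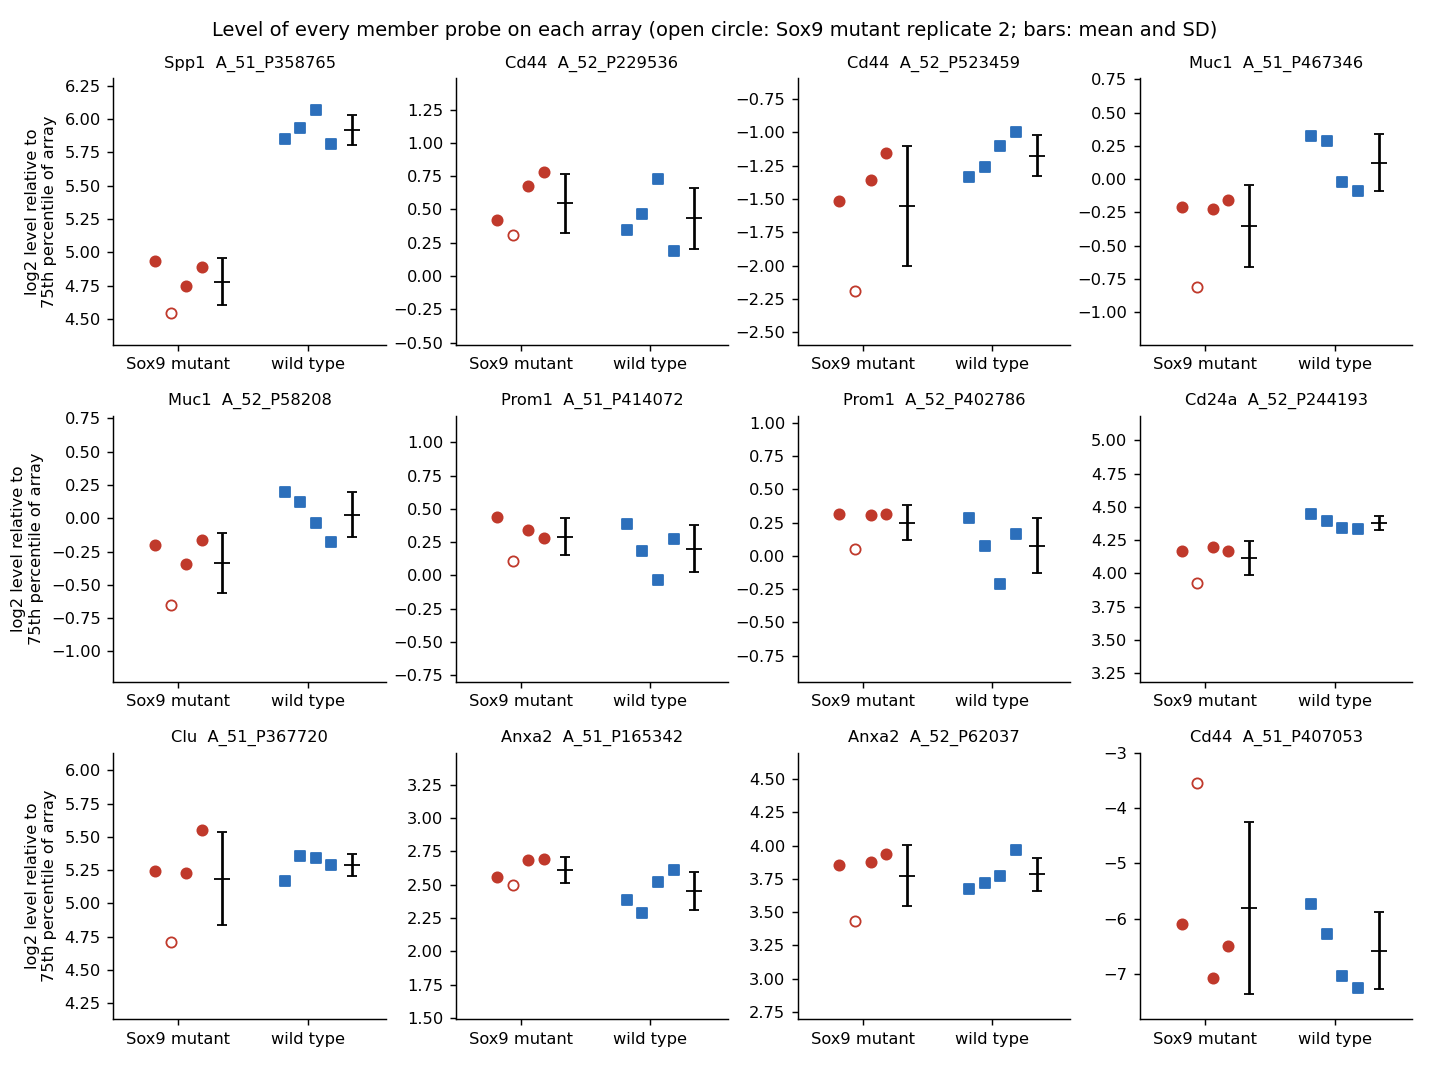
Log2 level over the array's 75th percentile (vertical axes, which differ between panels) for every member probe, with Sox9 mutant pools as circles on the left and wild-type pools as squares on the right of each panel. The open circle is mutant replicate 2 and the bar beside each group is its mean and SD (n = 4). Spp1 shows the widest gap, with mutants between 4.54 and 4.93 and wild type between 5.81 and 6.07.

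Spp1 is represented by 1 probe (A_51_P358765, chromosome 5, 104681071 to 104681130 on mouse assembly mm8), which is spotted 10 times on every array. Its level was 4.93, 4.54, 4.75 and 4.89 in mutant pools 1 to 4, against 5.85, 5.93, 6.07 and 5.81 in wild-type pools 1 to 4. The genotypes did not overlap, and the lowest value was that of mutant replicate 2. Averages were 4.78 ± 0.18 in mutants and 5.92 ± 0.11 in wild type (SD, n = 4 pools each). The difference was -1.14 with an SE of 0.11 and a 95% confidence interval of -1.39 to -0.89 (adjusted p 0.00440, limma), so that mutants had 45.4% of the wild-type signal, a 2.20-fold fall. An exact two-sided permutation test gave p = 0.0286, the smallest that 4 against 4 pools allow. Without mutant replicate 2 the difference was -1.06 (95% confidence interval -1.26 to -0.86, adjusted p 0.00114, limma), or 2.08-fold. The call held in all 8 fits that left out 1 array. It was lost when arrays were centred on their median instead (difference -1.54, adjusted p 0.207, limma), a scaling that moved the median of all probes from 0.05 to -0.35. With median centring and without mutant replicate 2 it was -1.09 (adjusted p 7.45e-04, limma). The call was also lost with the replicate number, to which the labels give no meaning, as a block (-1.14, adjusted p 0.0703, limma).

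The fall is also visible before any scaling between arrays. The processed signal of Spp1 was 69878, 56894, 55075 and 61100 scanner units in mutant pools 1 to 4, against 113556, 125964, 124863 and 124050 units in wild-type pools 1 to 4. No array had most of its Spp1 spots marked as saturated. Single saturated spots were not counted, so some loss of signal at the top of the scanner range was not tested. The highest mutant signal was well short of the lowest wild-type signal, although the array of mutant replicate 2 had the highest median signal of all 8.

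The 10 spots of the Spp1 probe give the measurement error within an array. After outlier spots were left out, 8 to 10 remained per array, and their SD was between 0.04 and 0.09 on the log2 scale, or a coefficient of variation of 2.66% to 5.85% of the signal. Among the 142 to 174 brighter probes with at least 5 spots (mean signal of 500 units or more), the median coefficient of variation of an array was 3.06% to 5.26%. The SD between pools of one genotype, 0.18 in mutants and 0.11 in wild type, was therefore larger than that between spots of one array, and the gap between genotypes was larger than both. The dimmest Spp1 spot of any wild-type array, at 5.75, was brighter than every mutant spot. Spots of one array share a pool and are not replicates of a genotype.

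**Figure D2:**
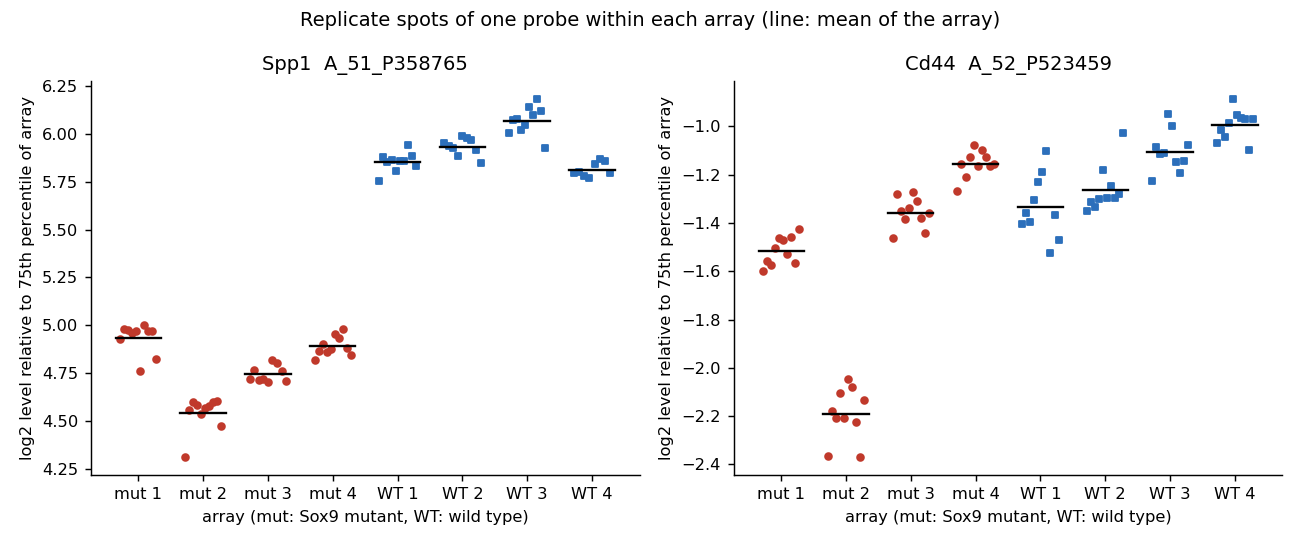
Log2 level of each replicate spot of the Spp1 probe (left panel) and of the Cd44 probe A_52_P523459 (right panel) on the 4 Sox9 mutant arrays (circles) and the 4 wild-type arrays (squares), with a line at the mean of each array. For Spp1 every mutant spot lies below every wild-type spot, the dimmest of which is at 5.75, whereas for Cd44 the spots of mutant replicates 3 and 4 lie among those of the wild-type arrays.

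RefSeq lists 2 starts for Spp1 on assembly GRCm38.p6, and the 250 bases before each are shown because Spp1 is the member that fell after a transcription factor was deleted. Capitals mark the letters CCAAT or their reverse complement ATTGG, a common promoter element.
Spp1 first start (chr5:104434861-104435110, plus strand): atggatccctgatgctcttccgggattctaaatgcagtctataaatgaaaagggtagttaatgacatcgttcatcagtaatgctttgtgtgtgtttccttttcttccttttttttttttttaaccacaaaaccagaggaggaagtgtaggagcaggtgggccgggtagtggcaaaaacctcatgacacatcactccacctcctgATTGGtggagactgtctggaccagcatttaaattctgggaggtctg
Spp1 second start (chr5:104435942-104436191, plus strand): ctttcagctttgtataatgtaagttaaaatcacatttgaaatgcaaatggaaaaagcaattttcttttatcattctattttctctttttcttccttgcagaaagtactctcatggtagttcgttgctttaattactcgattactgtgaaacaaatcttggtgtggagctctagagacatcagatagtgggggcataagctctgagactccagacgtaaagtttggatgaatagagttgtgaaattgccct
The first start has 1 such element, 46 bases before the start, and the second has 0, beside 33.8% of all 32851 listed promoters that hold it on either strand. One form of the core of the SOX recognition motif, ACAAT or its reverse complement ATTGT, was searched in the 250 bases before and 50 bases after each start. It was found in 0 of the 7 listed promoters of Spp1, Cd44, Muc1, Prom1 and Anxa2, beside 31.0% of all listed promoters. That says only that these letters are not in these windows. Other forms of the SOX motif were not searched, so SOX sites in these promoters are not excluded.

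Cd44 was measured by 3 probes, and neither of the 2 that passed the filter was called. The brighter one (A_52_P229536, chromosome 2, 102613589 to 102613648) had levels of 0.42, 0.31, 0.68 and 0.78 in mutant pools 1 to 4, against 0.35, 0.47, 0.73 and 0.19 in wild-type pools 1 to 4. The groups overlapped over most of their range. The difference was 0.11 with a 95% confidence interval of -0.24 to 0.47 (adjusted p 0.640, limma), and 0.19 without mutant replicate 2 (adjusted p 0.380, limma). Its sign turned with median centring, at -0.29, where the median of all probes was itself -0.35.

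The second Cd44 probe (A_52_P523459, chromosome 2, 102612349 to 102612408) is spotted 10 times on each array, like that of Spp1. Its levels were -1.51, -2.19, -1.36 and -1.15 in mutant pools 1 to 4, against -1.33, -1.26, -1.10 and -0.996 in wild-type pools 1 to 4. Mutant replicate 2 lay below every other array, and mutant replicate 4 above wild-type replicates 1 and 2. The difference was -0.38 with a 95% confidence interval of -0.89 to 0.13 (adjusted p 0.324, limma), and -0.17 without mutant replicate 2 (95% confidence interval -0.44 to 0.10, adjusted p 0.340, limma). The SD of the spots within an array was 0.05 to 0.13, whereas that of the 4 mutant pools was 0.45, and 0.18 without mutant replicate 2. Both probes carry 3 RefSeq transcripts each in the annotation of the array and had differences of opposite sign. The dim probe (A_51_P407053, chromosome 2, 102635102 to 102635161), annotated to 2 transcripts, averaged -5.80 ± 1.55 in mutants and -6.57 ± 0.70 in wild type (SD, n = 4 pools each). Its mutant average without replicate 2 was -6.55, and it was not tested.

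Muc1 was lower in mutants on both of its probes without passing the test. On the first (A_51_P467346, chromosome 3, 89316970 to 89317029) the levels were -0.21, -0.81, -0.23 and -0.16 in mutant pools 1 to 4, against 0.33, 0.29, -0.02 and -0.09 in wild-type pools 1 to 4. The groups did not overlap, but the gap between the highest mutant and the lowest wild-type pool was small beside the spread of either genotype. The difference was -0.48 with an SE of 0.18 and a 95% confidence interval of -0.89 to -0.06 before adjustment (adjusted p 0.167, limma). On the second probe (A_52_P58208, 89317108 to 89317265, a target that spans 158 bases of genome) the difference was -0.36 with an SE of 0.14 (adjusted p 0.173, limma), and the groups overlapped. Leaving out mutant replicate 2 gave -0.32 and -0.26, with adjusted p of 0.0997 and 0.129 (limma). Both probes passed in 1 alternative only, when limma's array weights were used (adjusted p 0.0224 and 0.0303). That fit called 6786 of all 29462 probes.

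Prom1 levels were close in both genotypes. The probe A_51_P414072 (chromosome 5, 44282340 to 44282399) had levels of 0.44, 0.11, 0.34 and 0.28 in mutant pools 1 to 4, against 0.39, 0.18, -0.04 and 0.27 in wild-type pools 1 to 4. The wild-type pools covered nearly the whole range of the mutant ones. The difference was 0.09 with a 95% confidence interval of -0.18 to 0.36 (adjusted p 0.620, limma), and 0.15 without mutant replicate 2 (adjusted p 0.346, limma). The probe A_52_P402786 (44294419 to 44294478) had a difference of 0.17 with a 95% confidence interval of -0.12 to 0.46 (adjusted p 0.407, limma). Without mutant replicate 2 its 3 mutant pools, at 0.32, 0.31 and 0.32, all lay above the wild-type pools, the highest of which was 0.28, and the difference was 0.24 (adjusted p 0.189, limma). Both differences turned negative with median centring, to -0.31 and -0.23.

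Cd24a was lower in mutants by a small amount. Its probe (A_52_P244193, chromosome 10, 43272315 to 43272374) had levels of 4.17, 3.93, 4.198 and 4.17 in mutant pools 1 to 4, against 4.45, 4.39, 4.34 and 4.33 in wild-type pools 1 to 4. No mutant pool reached the lowest wild-type pool, and mutant replicate 2 was the lowest. Averages were 4.11 ± 0.13 in mutants and 4.38 ± 0.05 in wild type (SD, n = 4 pools each). The difference of -0.26, or 83.3% of the wild-type signal, had an SE of 0.08 and did not pass (adjusted p 0.118, limma). It passed without mutant replicate 2, at -0.20 (95% confidence interval -0.33 to -0.07, adjusted p 0.0470, limma), in a fit that called 16% of all probes. With array weights it passed too (-0.21, adjusted p 0.0133, limma), in a fit that called 6786 of all 29462 probes. Median centring without mutant replicate 2 also called it (-0.23, adjusted p 0.0341, limma), beside 4610 of all probes.

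Clu showed no difference beyond its spread. Its probe (A_51_P367720, chromosome 14, 64935424 to 64935483) had levels of 5.25, 4.71, 5.23 and 5.55 in mutant pools 1 to 4, against 5.17, 5.36, 5.34 and 5.29 in wild-type pools 1 to 4. The mutant pools lay on both sides of the wild-type pools. The difference was -0.10 with a 95% confidence interval of -0.50 to 0.29 (adjusted p 0.702, limma), and 0.05 with an interval of -0.17 to 0.28 without mutant replicate 2 (adjusted p 0.718, limma).

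Anxa2 was measured by 2 probes with overlapping genotypes on each. The brighter one (A_52_P62037, chromosome 9, 69288867 to 69288926) had levels of 3.86, 3.43, 3.87 and 3.93 in mutant pools 1 to 4, against 3.68, 3.72, 3.77 and 3.96 in wild-type pools 1 to 4. Mutant replicate 2 was the lowest and wild-type replicate 4 the highest. The difference was -0.01 with a 95% confidence interval of -0.31 to 0.29 (adjusted p 0.970, limma), and 0.11 without mutant replicate 2 (adjusted p 0.387, limma). The other probe (A_51_P165342, 69282203 to 69282977, a target that spans 775 bases of genome) averaged 2.61 ± 0.10 in mutants and 2.45 ± 0.14 in wild type (SD, n = 4 pools each). Its difference of 0.16 did not pass (adjusted p 0.324, limma), nor without mutant replicate 2 (0.20, adjusted p 0.171, limma), but did with array weights (0.26, adjusted p 0.0355, limma). The fit with array weights called 6786 of all 29462 probes.

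**Figure D3:**
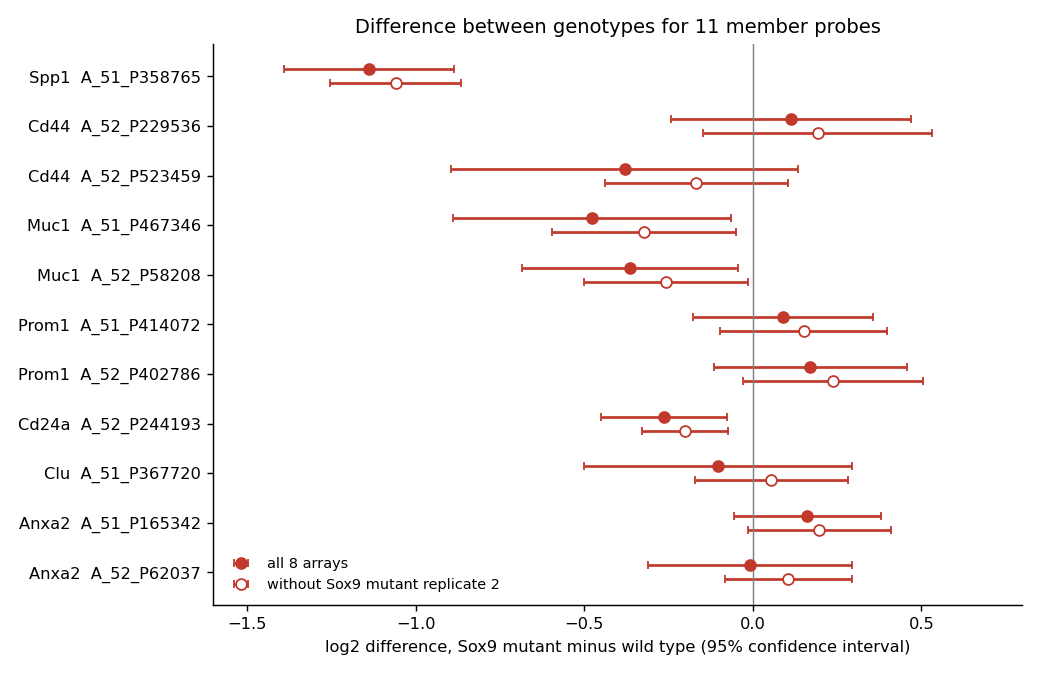
Log2 difference between genotypes (horizontal axis, Sox9 mutant minus wild type) with its 95% confidence interval for the 11 member probes that were tested, from all 8 arrays (filled) and without mutant replicate 2 (open). The intervals of Spp1, at -1.39 to -0.89 and -1.26 to -0.86, lie far from 0, while those of Cd44, Prom1, Clu and Anxa2 include it in both fits.

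The genes whose levels followed Spp1 most closely over the 8 arrays were 2610035D17Rik, a RIKEN transcript (Pearson r 0.9956), Gga3, a clathrin adaptor of the trans-Golgi network (0.9944), Cntfr, a receptor of ciliary neurotrophic factor (0.9917), Ino80, the ATPase of a chromatin remodelling complex (0.9917), and Abtb2 (0.9879). These are the first 5 of 15813 named genes, with 1 probe a gene. Their differences were smaller than that of Spp1 (-1.14), at -0.70, -0.22, -0.60, -0.40 and -0.95 in the same order. That of Gga3 was not called (adjusted p 0.0779, limma). Over the 7 arrays without mutant replicate 2 their coefficients were 0.9939, 0.9925, 0.9885, 0.9911 and 0.9843. Sox9 itself ranked 7, with 0.9872. Of the other members, Cd24a had 0.89, Muc1 0.79, Clu 0.39, Anxa2 0.15, Cd44 -0.13 and Prom1 -0.29. All 8 points share the gap between genotypes, so any gene that separates the 2 groups evenly has a coefficient near 1.

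Of 68 related genes, grouped by what they do for the 7 members, 63 passed the filter on their brightest probe. Of these, 2 rose and 2 fell, beside 4.35% of all genes called in either direction, 1.67% higher and 2.68% lower, with 1 probe a gene. Their median difference was 0.05, beside -0.0045 for all genes. Without mutant replicate 2, 7 rose and 5 fell, beside 16.5% of all genes, 6.45% higher and 10.1% lower. The 4 called genes were 2 of the 9 osteopontin-binding integrin subunits and 2 of the 12 CD44 ligands and partners, and in each of these groups 1 gene rose and 1 fell.

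Itgb6, the beta subunit of the epithelial integrin alpha v beta 6, rose. Its main probe (A_52_P195107) had levels of -1.09, -1.14, -1.27 and -1.04 in mutant pools 1 to 4, against -2.21, -2.09, -2.15 and -1.83 in wild-type pools 1 to 4. The groups did not overlap and mutant replicate 2 lay within the mutant range. The difference was 0.93, or 1.91-fold (adjusted p 0.00654, limma), and 0.94 without mutant replicate 2. Its other probes had differences of 1.64 (adjusted p 0.0425, limma) and 1.03 (adjusted p 0.0102, limma), so all 3 probes rose. Itgb3, the beta subunit of the vitronectin receptor alpha v beta 3, gave a different answer on each of its 2 probes. The brighter one (A_52_P553890) had levels of -0.88, -1.38, -0.82 and -0.82 in mutant pools 1 to 4, against 0.27, 0.17, 0.45 and 0.61 in wild-type pools 1 to 4. On it the difference was -1.35, or 2.55-fold lower (adjusted p 0.00850, limma), and -1.22 without mutant replicate 2. The other (A_51_P237893) had -0.65 ± 0.05 in mutants and -0.88 ± 0.08 in wild type (SD, n = 4 pools each), a difference of 0.23 (adjusted p 0.0991, limma), so the fall of Itgb3 rests on 1 probe. The partner subunit Itgav, shared by both receptors, had a difference of 0.10 (adjusted p 0.358, limma).

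Of the 3 synthases of hyaluronan, the main CD44 ligand, Has3 fell, Has2 rose and Has1 was not called. Has3 had levels of -4.48, -3.91, -4.43 and -4.73 in mutant pools 1 to 4, against -2.75, -2.64, -2.82 and -2.87 in wild-type pools 1 to 4. Every mutant pool was below every wild-type pool. It fell 3.07-fold, with a difference of -1.62 (adjusted p 0.00601, limma), and of -1.78 without mutant replicate 2. Has2 had levels of 0.57, 0.72, 0.50 and 0.59 in mutant pools 1 to 4, against -0.12, -0.01, 0.07 and 0.15 in wild-type pools 1 to 4. It rose 1.49-fold, with a difference of 0.57 (adjusted p 0.0159, limma), and of 0.53 without mutant replicate 2. Its call was kept in 3 of the 8 fits that left out 1 array, while those of Has3, Itgb6 and Itgb3 were kept in all 8. Itgb6 lost its call with median centring (0.54, adjusted p 0.538, limma), quantile normalization (0.68, adjusted p 0.110, limma) and normexp (0.55, adjusted p 0.118, limma). Itgb3 lost it with median centring (-1.75, adjusted p 0.193, limma) and quantile normalization (-1.53, adjusted p 0.0702, limma), Has3 with quantile normalization (-2.48, adjusted p 0.134, limma), and Has2 with median centring (0.17, adjusted p 0.745, limma). With the replicate number as a block, Itgb6, Has3 and Has2 lost their calls too (adjusted p 0.0637, 0.0524 and 0.101, limma). The second Has2 probe had a difference of 0.94 that did not pass (adjusted p 0.113, limma). Has1, well above background on 4 mutant arrays and 2 wild-type arrays, had a difference of 0.82 (adjusted p 0.373, limma), and of 0.24 without mutant replicate 2.

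In the other groups 0 genes were called. At an unadjusted p under 0.05, 13 of the 63 related genes passed, beside 4818 of 19393 genes in all. Of the osteopontin family and its processing enzymes 6 of 10 were tested, and Mmp7, a secreted protease, had the smallest p, at -3.60 ± 0.32 in mutants and -4.75 ± 0.54 in wild type (SD, n = 4 pools each; adjusted p 0.0770, limma; 0.0540 without mutant replicate 2). Muc4 among 7 tested mucins (difference -0.86, adjusted p 0.152, limma), Slc9a3r1 among 3 apical membrane genes (0.11, adjusted p 0.467, limma) and Trem2 among 4 clusterin receptors (0.52, adjusted p 0.187, limma) had the smallest p of their groups. Muc4 passed without mutant replicate 2, at -1.13 (adjusted p 0.0105, limma).

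Of the 9 other duct and epithelial surface genes 0 were called with all 8 arrays, and 2 were called higher in mutants without mutant replicate 2. Of 13 annexins and partners of annexin A2, Anxa10 had the smallest p (adjusted p 0.129, limma) and was well above background on 4 mutant arrays and 1 wild-type array. S100a10, which forms a complex with annexin A2, had a difference of -0.15 (adjusted p 0.425, limma).

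**Figure D4:**
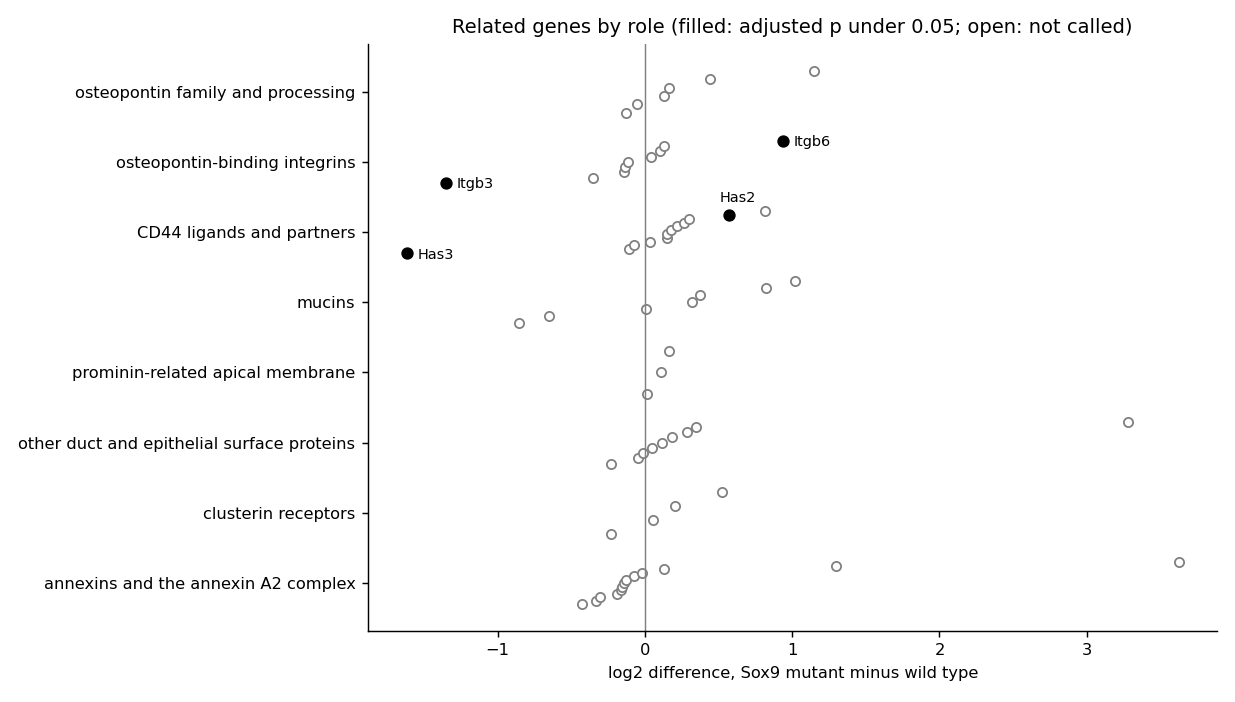
Log2 difference (horizontal axis, Sox9 mutant minus wild type) of the 63 tested related genes in 8 groups by role, with called genes filled and named and the others open. Only Itgb6 (0.93), Has2 (0.57), Itgb3 (-1.35) and Has3 (-1.62) are called. Both open points above 3 are genes well above background on at most 1 wild-type array, so their place on the axis is not a measured fold.

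Markers of other cells were measured beside the members, since several of the 7 genes are also active outside ducts, Spp1 and Cd44 in macrophages for example. All 5 markers of pancreatic epithelium and all 5 of duct and trunk cells were well above background on every array, as were all 8 of mesenchyme, so the dissected tissue held both. Calls in the marker lists stand beside 4.35% of all genes called with all 8 arrays, 1.67% higher and 2.68% lower. Without mutant replicate 2 these shares were 16.5%, 6.45% and 10.1%. The summed log2 level of the duct and trunk list was 4.61 to 4.97 in mutants and 4.72 to 4.85 in wild type, and of its 5 genes Onecut1 was called higher and Sox9 itself lower. The call of Onecut1 was kept in 3 of the 8 fits that left out 1 array, and that of Sox9 in all 8. Krt19, a duct keratin, had a difference of 0.35 (adjusted p 0.170, limma) and was also called higher without mutant replicate 2 (0.47, adjusted p 0.00752, limma). Krt7, with a difference of 0.05, was called in neither fit. In the macrophage and myeloid list 1 of 8 markers, Fcgr3, was called lower (-0.73, adjusted p 0.0475, limma), a call kept in 1 of 8 fits that left out 1 array, and 0 higher. The summed level was 4.39 to 4.96 in mutants and 4.87 to 5.197 in wild type, and the genotypes overlapped. The median difference of the 8 markers leaned lower, at -0.27, and at -0.13 without mutant replicate 2. The neuron and Schwann cell list moved with Spp1, at 1.16 to 1.72 in mutants and 2.22 to 2.60 in wild type, with 2 of 5 called lower (Sox10 and S100b), also without mutant replicate 2. The endocrine list overlapped by 1 pool of each genotype, at 5.80 to 7.10 in mutants and 7.09 to 7.47 in wild type, with 2 of 5 called lower (Neurog3 and Isl1) and 4 of 5 without mutant replicate 2 (Chga and Ins2 besides). Every marker of these 3 lists was well above background on all arrays, and their part in the fall of Spp1 was not tested.

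Pdx1, a transcription factor of pancreatic progenitors and beta cells, was called lower among the 5 epithelial markers (-1.05, adjusted p 0.00215, limma), in all 8 fits that left out 1 array. Krt8 and Krt18, at 0.21 and 0.31, were called higher without mutant replicate 2 (0.31 and 0.41, adjusted p 0.0156 and 0.0349, limma). Their part in the fall of Spp1 was not tested either. The summed level was 7.28 to 7.75 in mutants and 7.27 to 7.39 in wild type for pancreatic epithelium, and 8.05 to 8.72 in mutants and 8.63 to 8.79 in wild type for acinar cells, with 0 of 5 called. It was 8.15 to 8.55 in mutants and 8.49 to 8.75 in wild type for mesenchyme, with 0 of 8 called, and 2.60 to 2.63 in mutants and 2.49 to 2.74 in wild type for mesothelium, with 1 of 5 called higher (Upk1b, in 1 of 8 fits that left out 1 array). For endothelium it was 3.64 to 4.03 in mutants and 3.83 to 3.98 in wild type, with 0 of 5 called. Lymphoid markers, 0 of 4 called, gave -0.89 to -0.25 in mutants and -0.72 to -0.56 in wild type, and among them Cd79a was well above background on 2 arrays of each genotype. Erythroid markers, 0 of 5 called, gave 4.98 to 5.38 in 3 mutant pools and 4.87 to 5.81 in wild type, with no sum for mutant replicate 1, where the spot of Hba-a1 was an outlier. Without mutant replicate 2, 1 gene each of the acinar (Bhlha15), mesenchyme (Lum) and lymphoid (Ptprcap) lists was called lower and 1 erythroid gene (Hbb-y) higher. That fit called 16.5% of all genes, 6.45% higher and 10.1% lower.

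**Figure D5:**
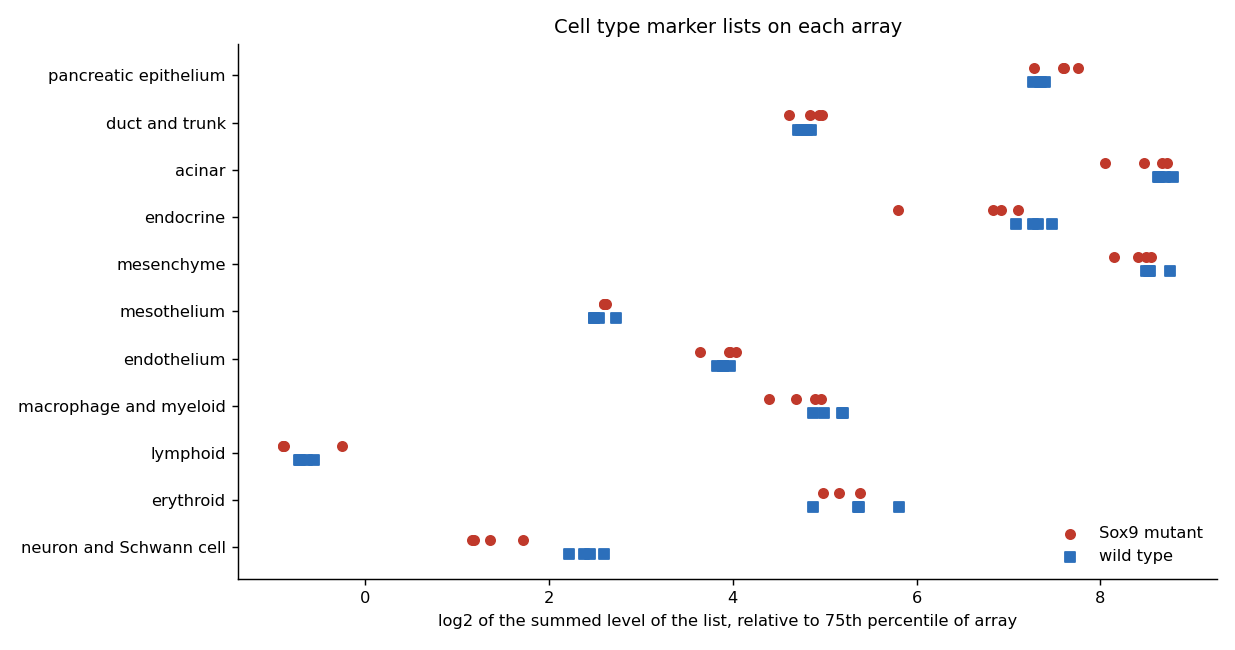
Log2 of the summed level of each marker list (horizontal axis, over the array's 75th percentile) on the Sox9 mutant arrays (circles, upper row of each list) and the wild-type arrays (squares, lower row). The neuron and Schwann cell list is separated between genotypes, at 1.16 to 1.72 in mutants and 2.22 to 2.60 in wild type, and the duct and macrophage lists overlap.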

How the data were processed

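Per the file headers, each array was read with Agilent Feature Extraction 9.5.3.1, whose deposited processed signal is a linear intensity, background-subtracted and detrended spot by spot, with surrogates for low values and nothing equalized between arrays. Flags of the same deposited files (well above background, outlier, saturated) are other values and were used as given. The deposited series table, also an intensity, was an alternative. The submitters' processing notes name limma, without its steps. Control and outlier spots were left out, spots of a probe were averaged as log2 values, and each array's 75th percentile was subtracted. Probes well above background on at least 4 of 8 arrays were fitted with limma 3.58.1 in R 4.3.3 (lmFit, eBayes, genotype as the only term, two-sided). Confidence intervals are at 95% and unadjusted. For related genes the probe with the highest mean over the 8 arrays was read from the same fit. The fit was tested on simulated data. Probe names are those of the files; current symbols came from RefSeq (GRCm38.p6) for 33099 of 41174 probes: 24085 by accession, 6537 by symbol and 2477 by synonym. The text names every member and Sox9, up to 4 called related genes a group or otherwise the one with the smallest p, and the 5 genes most like Spp1; 1 related gene that this would name is not reported here; Itgav, S100a10, Has1, the marker genes and other probes of called genes were added after their values were seen, as was the CCAAT search. The members and lists were chosen with earlier results of these data known. Whether pools came from separate litters is not given, so p-values set the difference between genotypes against the spread between these pools only. The number of arrays limits the precision.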

Additional observations from a re-analysis of the deposited data

Results flagged for a closer look

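In 4 of the 22 sets of 4 pools (11 member probes in 2 genotypes) 1 pool lay far from the other 3, by Dixon's test at the 95% level, where chance gives about 1 in 20. All 4 were mutant replicate 2, and it was the lowest mutant pool each time. The first Muc1 probe (A_51_P467346) had a level of -0.81 there, against -0.23 in the nearest mutant pool. The Prom1 probe A_52_P402786 had 0.0506, against 0.31. Cd24a had 3.93, against 4.17, and the Anxa2 probe A_52_P62037 had 3.43, against 3.86. Mutant replicate 2 was not among the pools set apart in this way for Spp1. The 22 sets share the same arrays and are not independent, so the rate of 1 in 20 is only a rough guide.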

How the results depend on the processing

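The fall of Spp1 kept its direction in all 18 alternatives, at -1.54 to -1.001, and its call in 16 of them. It was lost with median centring (-1.54, adjusted p 0.207, limma) and with the replicate number as a block (-1.14, adjusted p 0.0703, limma); left-out arrays gave -1.19 to -1.06. Against 1 called member probe, 0 were called with median centring (1 at an unadjusted p under 0.05), 0 with the replicate block (2 unadjusted) and 0 in the authors' series table (5 unadjusted), all by limma; that table's 9 member probes do not include that of Spp1. Array weights called 5 of 11, beside 6786 of all 29462 probes. Median centring without mutant replicate 2, chosen after seeing the data, called 2 of 11, beside 4610 of all 29462 probes. Left-out arrays gave 1 to 2, beside 316 to 4708 of all probes. Related genes called, 4, were 1 with median centring, 1 with quantile normalization, 1 with the block (Itgb3), 7 in the series table, 16 with array weights and 9 with median centring without mutant replicate 2; left-out arrays gave 3 to 12. Probes called over the whole array, 1131, were 64 with median centring, 57 with the block, 427 without a filter, 1905 with a trended robust prior, 2440 in the series table, 6786 with array weights and 4610 with median centring without mutant replicate 2. Leaving out 1 array gave 316 to 4708: 4708 without mutant replicate 2, and 325, 422 and 415 without mutant replicates 1, 3 and 4. Without wild-type replicates 1 to 4 the counts were 316, 337, 325 and 570.

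Signs turned in uncalled members only. With median centring, the Anxa2 probe A_51_P165342 had -0.24, the Cd44 probe A_52_P229536 -0.29 and the Prom1 probes -0.31 and -0.23. The Anxa2 probe A_52_P62037 had 0.13 with quantile normalization, 0.17 with normexp, 0.18 in the series table, 0.14 with array weights, -0.0619 to 0.11 with 1 array left out (above 0 without mutant replicate 2 or wild-type replicate 4), and 0.0747 with median centring without mutant replicate 2. In the same order Clu had 0.0137, 0.0182, 0.0406, 0.0514, -0.23 to 0.0545 (above 0 without mutant replicate 2) and 0.0239. The cause was not tested. Replicate numbers are shared by the genotypes but the labels give them no meaning. Deviations of same-numbered pools correlated at -0.01 to 0.13, and 3 of 4 mutant pools correlated better with another number. Each was set against the highest of the other numbers, so this cannot settle whether the pools were paired. The block is therefore given as an alternative. The slide as a block could not be fitted, since each genotype lies on 1 slide.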
